A study of Mus musculus with 55 samples.

Results

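A set of 10 genes of the growth hormone axis of the liver was followed in male mice with and without a urea cycle defect. They were Ghr, the growth hormone receptor; Stat5a and Stat5b, the transcription factors it activates; Socs2 and Cish, inhibitors of its signalling; Bcl6 and Cux2, transcription factors under growth hormone control; Igf1, the hormone the liver secretes in response; Igfals, the acid-labile subunit that carries it in blood; and Lifr, the receptor subunit for leukaemia inhibitory factor. They were chosen by name as rows of the count table (10 of 24475 genes), with earlier results of these data known. All 10 passed the filter on low counts, which left 13311 genes.

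Growth hormone binds GHR at the hepatocyte surface, the kinase JAK2 phosphorylates STAT5, and STAT5 enters the nucleus and switches on Igf1, Igfals, Socs2 and Cish. SOCS2 and CIS, the product of Cish, then damp the receptor. In rodents the pituitary of males releases growth hormone in separate pulses and that of females releases it more evenly, and the liver reads this pattern. BCL6 is a repressor that favours the male pattern and occupies many of the sites that STAT5 uses, and CUX2 is a factor of the female liver.

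Liver RNA was sequenced from 55 male mice in 6 groups, with 10 OTC sh-Gls2, 8 OTC sh-Glud1, 8 OTC control, 10 WT sh-Gls2, 9 WT sh-Glud1 and 10 WT control libraries, each from its own mouse by the labels. OTC mice were the B6EiC3Sn a/A-Otcspf-ash/J strain, in which a splice mutation lowers ornithine transcarbamylase, a urea cycle enzyme, and WT mice were B6EiC3SnF1/J hybrids, so the strains may differ at other loci as well. At the age of 4 months each mouse received by vein an adeno-associated virus with a short hairpin RNA against Gls2 (the liver glutaminase), against Glud1 (glutamate dehydrogenase) or a scrambled control. From week 2 after injection all groups ate a 40% protein diet, and livers were taken at week 5. The promoter that drives the hairpins was not given in the labels, and every group carried a virus.

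Library totals lay between 14489866 and 22781052 counts. The labels held for the targeted genes: Otc averaged 57.1 to 73.6 CPM (counts scaled to a common library total) in the OTC groups and 521 to 551 CPM in the WT groups. Gls2 averaged 198 CPM in OTC sh-Gls2 against 439 CPM in OTC control, and it averaged 204 CPM in WT sh-Gls2 against 441 CPM in WT control. Glud1 averaged 444 CPM in OTC sh-Glud1 against 1068 CPM in OTC control, and it averaged 386 CPM in WT sh-Glud1 against 1035 CPM in WT control. Hepatocyte markers were abundant in every library, with a summed level of 84654 to 142569 CPM over 9 genes. Library pairs within a group differed from each other by far more than sampling noise. A column of the deposited tables names an OTC control mouse under a number that no sample title carries, here given as OTC control without a number. Libraries of OTC control mice 3 and 67 and WT control mouse 13 stood apart from their groups in earlier results of these data, so comparisons of groups printed here whose call or direction they change are also given without them. In bulk liver, fewer cells of a type and less RNA per cell cannot be told apart.

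**Figure D1:**
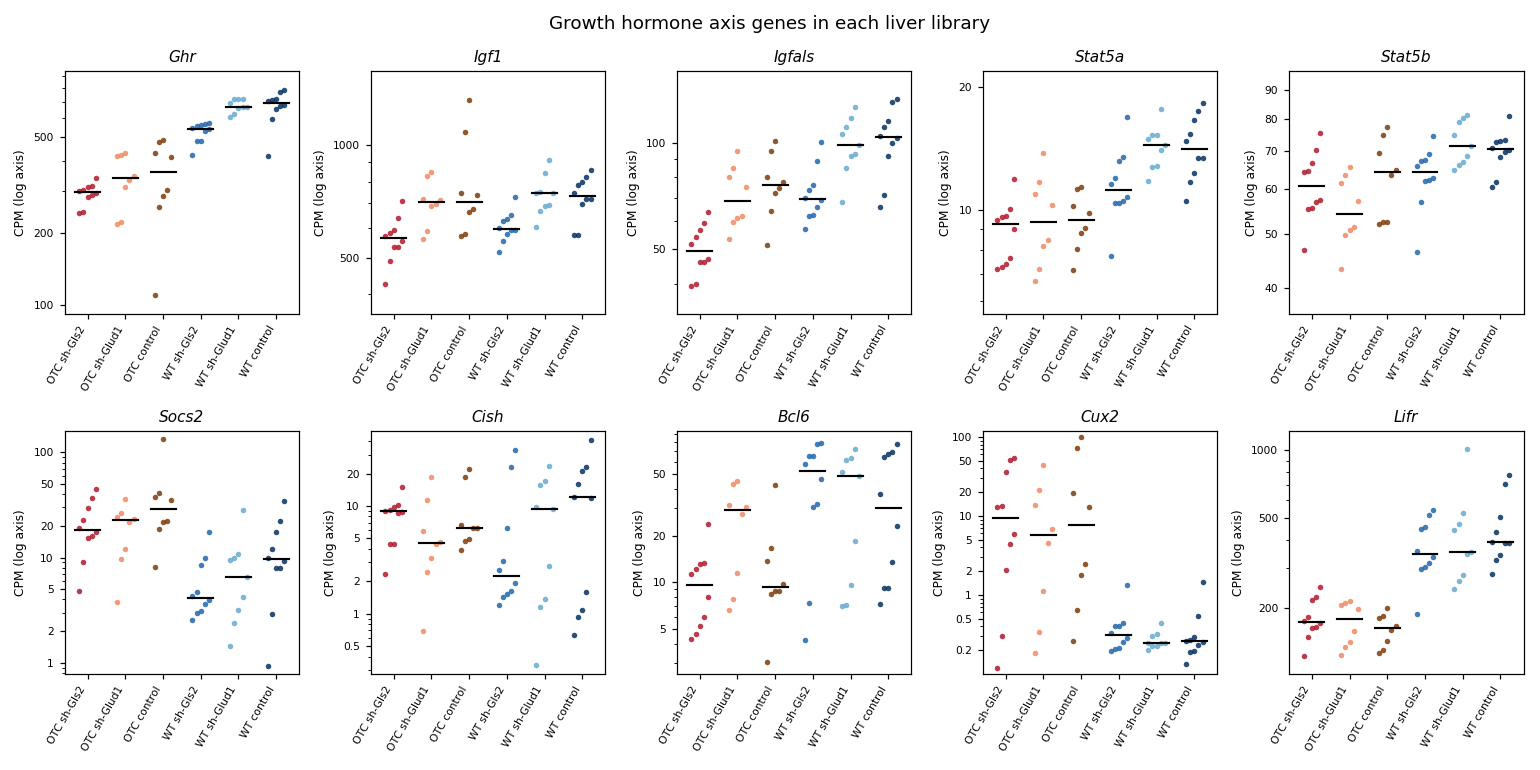
Level of each gene in every library in CPM (log axis, scaled for each gene), with the 3 OTC groups left of the 3 WT groups and a black line at each group's median. Ghr and Lifr points of OTC livers lie mostly below those of WT livers, Cux2 points reach 99.1 CPM in OTC livers and 1.46 CPM in WT livers, and Cish and Bcl6 spread widely within every group.

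Per unit of length, Ghr and Igf1 were the most abundant of the 10 transcripts. On the deposited TPM scale (which divides by transcript length and by the library total) Ghr averaged 190 ± 66.9 TPM in OTC control and 393 ± 59.6 TPM in WT control (SD, n = 8 and 10), and Igf1 averaged 223 ± 59.5 TPM in OTC control and 213.5 ± 20.7 TPM in WT control. Lifr averaged 47.0 ± 12.4 TPM in OTC control and 129 ± 29.95 TPM in WT control, and Igfals 61.8 ± 13.3 TPM and 75.8 ± 14.8 TPM. Stat5b, the main STAT5 of liver, averaged 21.3 TPM in OTC control and 21.9 TPM in WT control, against 4.37 and 6.10 TPM of Stat5a. Socs2 averaged 30.4 and 9.09 TPM, Cish 7.06 and 9.24 TPM, Bcl6 7.36 and 18.4 TPM, and Cux2 8.29 and 0.117 TPM, each in OTC control and then in WT control.

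The genes differed in how far mice of the same group lay apart. The biological coefficient of variation in edgeR's fit, the spread between mice beyond counting noise, was 12.6% for Stat5b, 17.1% for Igf1, 17.2% for Stat5a, 19.1% for Igfals, 21.9% for Ghr and 29.9% for Lifr. Among all tested genes Stat5b was at the 43.4 percentile of this measure, Igf1 at 63.2, Stat5a at 63.4, Igfals at 69.2, Ghr at 75.7 and Lifr at 86.6, so 9 of the 10 genes varied more than the median gene, which had 13.8%. For the feedback inhibitors and the repressors it was 70.9% for Socs2, 72.6% for Bcl6, 95% for Cish and 111% for Cux2, each at the 98.1 percentile or higher. Errors of these 4 genes are wide in every comparison of groups.

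The comparison of strains asked how the axis differs in OTC livers, and its receptor was lower there under all 3 vectors. Ghr had 243, 297 and 339 CPM as lowest, median and highest in OTC sh-Gls2, against 422, 544 and 574 CPM in WT sh-Gls2. The values were 217, 340 and 432 CPM in OTC sh-Glud1 against 607, 673 and 726 CPM in WT sh-Glud1, and 111, 359 and 488 CPM in OTC control against 418, 693 and 790 CPM in WT control. Every OTC library lay below every WT library under sh-Gls2 and sh-Glud1, and under the control vector the groups overlapped through WT control mouse 7 at the low end. Over all vectors, 20 of 26 OTC libraries were below the lowest of 29 WT libraries. The log2 fold change of Ghr was −0.85 ± 0.14 (SE; adjusted p = 8.70e-06) under sh-Gls2, −1.01 ± 0.15 (adjusted p = 1.27e-06) under sh-Glud1 and −0.96 ± 0.15 (adjusted p = 1.96e-06) under the control vector, by edgeR's quasi-likelihood test with Benjamini-Hochberg adjustment. In the order of the 6 group means Ghr separated into WT control and WT sh-Glud1 (674 and 679 CPM, not called against each other), WT sh-Gls2 (527 CPM), and the OTC groups (292 to 347 CPM, whose neighbours were not called against each other). The step from WT control to WT sh-Gls2 (edgeR adjusted p = 0.0415) was not called on the TPM scale (−0.27, limma adjusted p = 0.131).

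At an adjusted p below 0.05, OTC control livers had 2 of the 10 genes above and 5 below WT control, where 19.9% of all tested genes were higher and 16.4% lower. The counts were 2 higher and 5 lower under sh-Gls2, with a background of 14.5% higher and 14.9% lower, and 1 higher and 5 lower under sh-Glud1, with a background of 19.9% and 15.1%. These shares depend on the scale: on log2(TPM + 1) limma called 3882 genes higher and 1129 lower of 11310 under the control vector, 4247 and 749 under sh-Gls2, and 4862 and 822 under sh-Glud1, with medians over all genes of 0.10, 0.12 and 0.155. On that scale 2 of the 10 genes were higher under each vector, and 4, 4 and 5 were lower in the same order. The median log2 fold change of the 10 genes was −0.45 under the control vector, −0.25 under sh-Gls2 and −0.49 under sh-Glud1, against 0.02, 0.01 and 0.02 over all tested genes. Ranges lay apart with OTC lower for Lifr under the control vector (1.91% of genes), for Ghr under sh-Gls2 (1.71%), and for Ghr and Lifr under sh-Glud1 (2.88%).

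Downstream of the receptor, Stat5a was lower in OTC livers under each vector and Stat5b under sh-Glud1. Stat5a had medians of 9.24, 9.38 and 9.45 CPM in OTC sh-Gls2, OTC sh-Glud1 and OTC control, against 11.2, 14.4 and 14.1 CPM in WT sh-Gls2, WT sh-Glud1 and WT control, with overlapping ranges. Its log2 fold changes were −0.39 ± 0.12 (adjusted p = 0.00960), −0.57 ± 0.13 (adjusted p = 0.000462) and −0.60 ± 0.13 (adjusted p = 0.000150). On the TPM scale the difference under sh-Gls2 was −0.20 (limma adjusted p = 0.117). Stat5b had 43.3, 54.2 and 65.6 CPM in OTC sh-Glud1 against 64.8, 71.5 and 81.1 CPM in WT sh-Glud1, a log2 fold change of −0.39 ± 0.09 (adjusted p = 0.000449). Its difference was −0.05 ± 0.08 under sh-Gls2 and −0.15 ± 0.09 under the control vector, and neither was called. Both genes lie side by side on chromosome 11 and share 608 stretches of 50 bases, 14.7% of those of Stat5a and 11.1% of those of Stat5b, so reads in those stretches could be assigned to either gene.

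In the secreted arm of the axis Igfals was lower in OTC livers, and Igf1 had no called difference between strains. Igfals had 39.5, 49.5 and 63.7 CPM in OTC sh-Gls2 against 57.2, 69.5 and 101 CPM in WT sh-Gls2. It had 51.5, 76.1 and 101 CPM in OTC control against 65.8, 104 and 134 CPM in WT control. The ranges overlapped, and 10 of 26 OTC libraries were below the lowest WT library, 8 of them in OTC sh-Gls2. Igfals fell by 0.53 ± 0.12 on the log2 scale under sh-Gls2 (adjusted p = 0.00100), by 0.48 ± 0.13 under sh-Glud1 (adjusted p = 0.00386) and by 0.41 ± 0.13 under the control vector (adjusted p = 0.00997). Igf1 medians were 564, 704 and 706 CPM in OTC sh-Gls2, OTC sh-Glud1 and OTC control, against 597, 745 and 732 CPM in the matching WT groups. Its differences were −0.11 ± 0.11, −0.07 ± 0.12 and 0.13 ± 0.11, with edgeR 95% intervals of −0.32 to 0.10 under sh-Gls2 and −0.09 to 0.35 under the control vector. The highest Igf1 levels of the study were 1319 and 1087 CPM in OTC control mice 67 and 3, and without mouse 67 the difference under the control vector was −0.02, and without both it was −0.15 (adjusted p = 0.237).

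Of the feedback inhibitors, Socs2 was called higher in OTC livers under 2 vectors and Cish under none. Socs2 had 4.80, 18.4 and 44.97 CPM in OTC sh-Gls2 against 2.55, 4.11 and 17.7 CPM in WT sh-Gls2. It had 8.09, 28.96 and 133 CPM in OTC control against 0.942, 9.61 and 34.4 CPM in WT control. Under sh-Glud1 it had 3.78, 22.5 and 36.2 CPM in OTC livers against 1.43, 6.54 and 28.1 CPM in WT livers. Groups overlapped throughout, and 7 of 26 OTC libraries exceeded the highest WT library. Socs2 was higher in OTC livers under sh-Gls2 (log2 fold change 1.82 ± 0.49, adjusted p = 0.00363) and under the control vector (1.68 ± 0.49, adjusted p = 0.00553), while under sh-Glud1 the difference was 1.22 ± 0.51 with an adjusted p of 0.0574 (1.21, adjusted p = 0.0446, without OTC control mice 3 and 67, which enter through the shared estimate of spread). Without OTC control mouse 3 the value under the control vector was 1.08 (adjusted p = 0.0759), and without mice 3 and 67 it was 0.99 (adjusted p = 0.124). Cish ranged from 0.687 to 22.1 CPM over all OTC libraries and from 0.332 to 41.4 CPM over all WT libraries, and its log2 differences of 0.12 ± 0.63 under sh-Gls2, −0.50 ± 0.69 under sh-Glud1 and −0.49 ± 0.66 under the control vector were not called.

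The 2 transcription factors under growth hormone control differed in opposite directions, with Cux2 higher and Bcl6 lower in OTC livers. Cux2 had 0.120, 9.42 and 54.7 CPM in OTC sh-Gls2, 0.185, 5.73 and 44.2 CPM in OTC sh-Glud1, and 0.261, 7.78 and 99.1 CPM in OTC control. In WT livers it had 0.197, 0.308 and 1.33 CPM under sh-Gls2, 0.202, 0.249 and 0.442 CPM under sh-Glud1, and 0.135, 0.260 and 1.46 CPM under the control vector, which is 3 to 26 reads per library. Of 26 OTC libraries, 19 exceeded every WT library, and the others lay within or below the WT range, so the OTC livers ran from the WT level upward. The log2 fold change was 5.46 ± 0.95 under sh-Gls2 (adjusted p = 2.30e-05), 5.38 ± 1.08 under sh-Glud1 (adjusted p = 0.000116) and 6.10 ± 0.97 under the control vector (adjusted p = 2.79e-06), each resting on few WT reads. Under the control vector it was 4.02 (adjusted p = 0.000797) without OTC control mice 3 and 67, the 2 highest libraries, and 4.55 (adjusted p = 0.000567) when WT control mouse 13, the highest WT library, was also left out. Cux2 passed the filter on low counts through its OTC libraries, so its call as higher in OTC livers is a description and adds no support. With only the compared groups fitted it did not pass under sh-Gls2 or sh-Glud1, and 1 and 0 of the 10 genes were then called higher.

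Bcl6 had 4.31, 9.64 and 23.9 CPM in OTC sh-Gls2 against 4.22, 51.9 and 78.6 CPM in WT sh-Gls2, and 3.08, 9.29 and 42.4 CPM in OTC control against 7.26, 30.1 and 78.1 CPM in WT control. In OTC sh-Glud1 it had 6.63, 29.2 and 44.7 CPM, against 6.99, 48.7 and 72.5 CPM in WT sh-Glud1. The groups overlapped at the low end in each pair, and the highest WT libraries lay well above the highest OTC libraries. Bcl6 was lower under sh-Gls2 (−2.20 ± 0.51, adjusted p = 0.000886) and under the control vector (−1.43 ± 0.53, adjusted p = 0.0303), and the difference of −0.57 ± 0.53 under sh-Glud1 was not called. The call under the control vector was lost when any of 9 of 18 libraries was left out (largest adjusted p = 0.0665, without OTC control mouse 3), without mice 3 and 67 together (−1.20, adjusted p = 0.112) and on the TPM scale (limma adjusted p = 0.0905).

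The Bcl6 promoters are printed because Bcl6, which acts on the sites that STAT5 uses, itself carried the most copies of a STAT-type motif among the 9 genes that had a RefSeq promoter entry, all but Socs2. The motif searched was TTCNNNGAA, which reads the same on both strands, in the 250 bases before each RefSeq transcript start on GRCm38.p6. It was in 7.02% of 32851 promoters (8.13% of genes). The 9 genes had 17 starts, of which 4 carried the motif: both starts of Bcl6 and 2 of 3 starts of Igfals. The Bcl6 windows lie on the minus strand at chr16:23981284-23981533 and chr16:23988853-23989102, hold no annotated exon, and are written 5′ to 3′ with the motif in capitals.
Bcl6 downstream start: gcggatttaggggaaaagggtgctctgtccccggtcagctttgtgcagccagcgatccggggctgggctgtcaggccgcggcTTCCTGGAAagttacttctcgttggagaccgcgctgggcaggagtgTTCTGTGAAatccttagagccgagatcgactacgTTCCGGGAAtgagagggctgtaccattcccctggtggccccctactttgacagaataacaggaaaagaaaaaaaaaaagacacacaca
Bcl6 upstream start: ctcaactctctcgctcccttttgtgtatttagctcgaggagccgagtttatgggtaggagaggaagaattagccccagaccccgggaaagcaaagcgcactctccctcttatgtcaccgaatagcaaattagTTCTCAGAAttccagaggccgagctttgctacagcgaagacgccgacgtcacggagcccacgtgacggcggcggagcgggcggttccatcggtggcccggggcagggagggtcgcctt

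In the downstream window TTCCTGGAA begins 168 bases, TTCTGTGAA 122 bases and TTCCGGGAA 88 bases before the start, and in the upstream window TTCTCAGAA begins 118 bases before it. In Igfals, TTCTCAGAA lay 236 bases and TTCCTAGAA 58 bases before a start. The windows of Ghr, Igf1, Stat5a, Stat5b, Cish, Cux2 and Lifr held no copy. For Igf1 and Cish the only window was annotated exon over all 250 bases and lay inside the gene. Sequence before the annotated beginning of Igf1 and Cish was therefore not searched, and nothing follows for it. The windows of Ghr, Stat5a, Stat5b, Cux2 and Lifr held 0 to 175 exonic bases. A match to these letters is a description of the sequence and was not tested for binding.

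Lifr, whose product pairs with IL6ST to receive leukaemia inhibitory factor, was lower in OTC livers under all 3 vectors. It had 122, 173 and 248 CPM in OTC sh-Gls2 against 187, 348 and 545 CPM in WT sh-Gls2, and 123, 178 and 214 CPM in OTC sh-Glud1 against 243, 356 and 1016 CPM in WT sh-Glud1. In OTC control it had 126, 163 and 200 CPM, against 282, 391 and 777 CPM in WT control. The ranges lay apart under sh-Glud1 and the control vector, and 18 of 26 OTC libraries were below the lowest WT library. Log2 fold changes were −1.06 ± 0.19 (adjusted p = 5.16e-05), −1.34 ± 0.21 (adjusted p = 3.29e-06) and −1.50 ± 0.21 (adjusted p = 2.79e-07) under sh-Gls2, sh-Glud1 and the control vector.

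**Figure D2:**
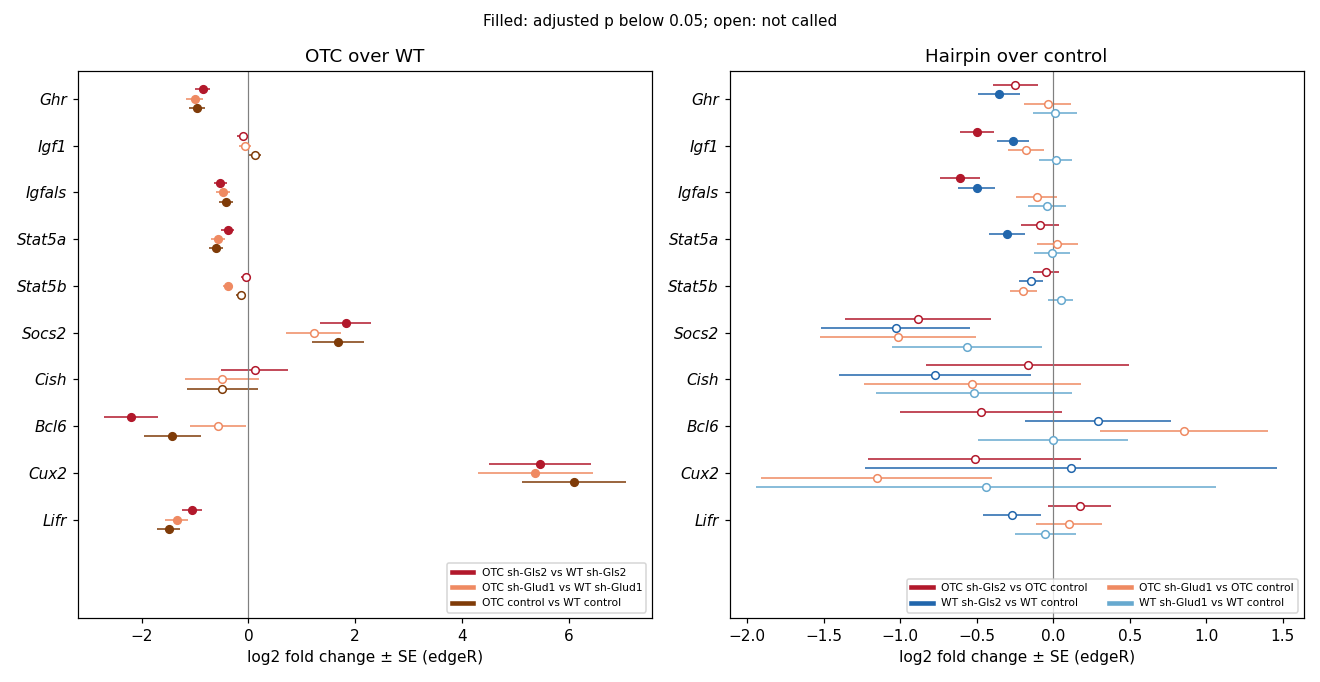
Log2 fold changes (x axis) with SE bars of the 10 genes (y axis), OTC over WT under each vector on the left and hairpin over control within each strain on the right, with filled points at an adjusted p below 0.05. On the left Cux2 stands at 5.38 to 6.10 and Ghr at −1.01 to −0.85, and on the right the filled points are those of sh-Gls2.

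Genes that read the growth hormone pattern were counted from lists chosen with earlier results of these data known, so the counts do not add independent evidence. Of 22 tested male-biased genes that depend on growth hormone pulses, 20 were lower and none higher in OTC control than in WT control (median log2 fold change −1.37), and 19 were lower under sh-Gls2 and under sh-Glud1. Hsd3b5, a steroid dehydrogenase of male mouse liver, averaged 3.44 CPM in OTC control livers against 187 CPM in WT control livers (−5.75 ± 0.89, adjusted p = 1.46e-06). Of 27 tested female-biased genes, 11 were higher and 6 lower (median 0.34) under the control vector, 10 higher and 3 lower (median 0.84) under sh-Gls2, and 11 higher and 3 lower (median 0.85) under sh-Glud1. Trim24, a transcriptional cofactor, averaged 55.3 CPM in OTC control livers against 18.2 CPM in WT control livers (1.60 ± 0.24, adjusted p = 1.18e-06). Cux2 is itself in the female-biased list. Among markers of other cells, Kupffer cell genes were higher in OTC livers for 5 of 12 under sh-Gls2 and 2 of 12 under each other vector, and none was lower. Hepatocyte genes were lower for 3 of 9 under each vector and higher for none under sh-Gls2 and 2 under each other vector, with sums of 95025 to 142569 CPM in OTC control livers and 84654 to 132093 CPM in WT control livers. Stellate cell genes were lower for 2, 4 and 3 of 10 under sh-Gls2, sh-Glud1 and the control vector and higher for 1 under each, with sums of 236 to 297 CPM in OTC control livers and 237 to 317 CPM in WT control livers. Of 4 tested nuclear or long transcripts, listed as a guide to RNA quality, 2, 1 and 1 were lower in the same order and none was higher. No measure of RNA quality itself was used here. Cell division genes were lower for 5 of 9 under the control vector (sums of 3.51 to 5.12 CPM in OTC control livers and 3.44 to 10.9 CPM in WT control livers), for 6 of 9 under sh-Glud1 and for none under sh-Gls2. Shares over all tested genes were 14.5% higher and 14.9% lower under sh-Gls2, and 19.9% and 15.1% under sh-Glud1. They were 19.9% and 16.4% under the control vector, so several of the marker counts lie near the general share. The part of the listed genes in the strain differences was not tested.

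Counts for other genes of the IGF system and of the receptors were smaller. Shares over all tested genes were 19.9% higher and 16.4% lower under the control vector. They were 14.5% and 14.9% under sh-Gls2, and 19.9% and 15.1% under sh-Glud1. Of 11 tested IGF ligands, receptors, binding proteins and proteases, 3 were higher and none lower in OTC control: Igfbp1, a hormone-regulated binding protein (113 CPM in OTC control against 13.1 CPM in WT control; 3.10 ± 0.61, adjusted p = 7.08e-05), Igf1r, the IGF1 receptor (0.46 ± 0.10, adjusted p = 0.000184), and Igfbp2, another binding protein (0.81 ± 0.23, adjusted p = 0.00423). Under sh-Gls2 2 were higher and none lower, and under sh-Glud1 3 were higher and 1 lower. Of 23 partners and restraints of the receptor, 3 were higher and 3 lower under the control vector, shares below those of all tested genes. Hnf4a, a hepatocyte transcription factor, was at 0.42 ± 0.08 (adjusted p = 0.000118). Grb10, an adaptor that restrains insulin and IGF1 receptors, was at −0.50 ± 0.14 (adjusted p = 0.00366). Of 7 tested genes related to Lifr, Il6ra, the interleukin 6 receptor, was higher in OTC livers under all 3 vectors, with log2 fold changes of 0.56 ± 0.20 under sh-Gls2 and 1.09 under both sh-Glud1 and the control vector. Il6st, the shared subunit, was lower under the control vector (−0.33 ± 0.07, adjusted p = 0.000223) and under sh-Glud1 (−0.24 ± 0.07, adjusted p = 0.00829).

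The Gls2 hairpin was compared with the control vector within each strain, and under it the secreted arm was lower in counts. Igfals had 39.5 to 63.7 CPM in OTC sh-Gls2 against 51.5 to 101 CPM in OTC control, and 57.2 to 101 CPM in WT sh-Gls2 against 65.8 to 134 CPM in WT control. It fell by 0.61 ± 0.13 on the log2 scale in OTC livers (adjusted p = 0.000132) and by 0.50 ± 0.12 in WT livers (adjusted p = 0.00106). Igf1 had 426, 564 and 710 CPM in OTC sh-Gls2 against 573, 706 and 1319 CPM in OTC control, and 517, 597 and 726 CPM in WT sh-Gls2 against 575, 732 and 860 CPM in WT control. Its log2 fold change was −0.50 ± 0.11 in OTC livers (adjusted p = 0.000267) and −0.26 ± 0.11 in WT livers (adjusted p = 0.0464), with overlapping ranges in both. Without OTC control mice 3 and 67 the value in OTC livers was −0.23 (adjusted p = 0.0413). In WT livers Ghr was at −0.35 ± 0.14 (adjusted p = 0.0415) and Stat5a at −0.30 ± 0.12 (adjusted p = 0.0387). In all, 2 of the 10 genes were called in OTC livers, where 22.6% of tested genes were lower, and 4 in WT livers, where 17.2% were lower, and none was called higher.

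Only the Igfals result in WT livers and the Igf1 and Igfals results in OTC livers kept their calls when any single library was left out. The WT calls of Ghr, Igf1 and Stat5a were lost in 9, 13 and 9 of 20 such fits, with adjusted p up to 0.0717, 0.0860 and 0.0937, and Stat5a was among those lost without WT control mouse 13 (adjusted p = 0.0737). On the TPM scale the WT calls of Ghr and Stat5a were lost as well (limma adjusted p = 0.131 and 0.0701). Ghr in OTC livers was at −0.25 ± 0.15 (adjusted p = 0.171), and at −0.38 without OTC control mouse 3 and −0.46 (adjusted p = 0.00179) without mice 3 and 67. Markers of other liver cells moved with the hairpin: 11 of 12 Kupffer cell genes were higher in OTC and 10 of 12 in WT livers, with summed levels of 241 to 408 CPM in OTC sh-Gls2 against 139 to 286 CPM in OTC control, and 218 to 342 CPM in WT sh-Gls2 against 150 to 254 CPM in WT control. Stellate cell genes were higher for 6 of 10 and 5 of 10, with sums of 333 to 456 CPM against 236 to 297 CPM in OTC and 261 to 432 CPM against 237 to 317 CPM in WT livers. Cell division genes were higher for 8 of 9 and 9 of 9, with sums of 6.25 to 48.2 CPM against 3.51 to 5.12 CPM in OTC and 12.3 to 71.3 CPM against 3.44 to 10.9 CPM in WT livers. Endothelial genes were higher for 7 of 10 in OTC livers (sums of 258 to 378.5 CPM in OTC sh-Gls2 against 210.3 to 300.5 CPM in OTC control) and for 2 of 10 in WT livers. Of the 4 transcripts listed as a guide to RNA quality, 2 were lower in OTC livers (sums over the list of 1284 to 2000 CPM against 1450 to 2105 CPM) and none in WT livers. Hepatocyte genes were lower for 3 of 9 in each strain. Of all 13311 tested genes, 2685 were higher and 3005 lower in OTC livers, and 2344 were higher and 2294 lower in WT livers. The part of the marker shifts in the Igf1 and Igfals results was not tested.

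On the deposited TPM scale the Igf1 difference under the Gls2 hairpin was not called in either strain. Igf1 averaged 193 TPM in OTC sh-Gls2 against 223 TPM in OTC control (−0.18, limma adjusted p = 0.110), and 213.1 TPM in WT sh-Gls2 against 213.5 TPM in WT control (−0.0006, limma adjusted p = 0.996). The same 2 deposited values give the transcript length that the authors' quantification assigned to a gene in each library, as the ratio of counts to TPM. The ratio was put on a scale of bases through 906 genes with a single annotated transcript, whose quartiles were at 92.9% and 101% of the annotated length. This measure was added after the data were seen and covers 10993 genes and 9 of the 10, without Cux2. Most genes hardly varied on it, with a median SD of the log2 ratio over libraries of 0.0029. For WT sh-Glud1 against WT control, where no gene was called, Ghr was at the 93.5 percentile of absolute change and Igf1 at 95.6. The shares of genes called are therefore a weak background for these genes.

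The length implied for Igf1 was shorter under the Gls2 hairpin in both strains. It had 4692, 5145 and 5494 bases as lowest, median and highest in OTC sh-Gls2 against 5561, 5895 and 6686 bases in OTC control, and 3938, 4603 and 5052 bases in WT sh-Gls2 against 4889, 5396 and 5808 bases in WT control. The ranges lay apart in OTC livers and overlapped in WT livers. The share of all genes with ranges apart on this measure was not computed. The log2 ratio was −0.23 ± 0.04 in OTC (limma adjusted p = 0.00170, where 0.564% of genes were called) and −0.24 ± 0.04 in WT (adjusted p = 0.000335, 0.337% of genes). Against sh-Glud1 it was −0.22 in OTC (adjusted p = 0.00368, 0.482% of genes) and −0.27 in WT (adjusted p = 9.28e-05, 0.246% of genes). Annotated coding transcripts of Igf1 run from 510 to 7052 bases. Igf1 was also longer in OTC than in WT livers under sh-Gls2 (0.17 ± 0.04, adjusted p = 0.0203), while the difference of 0.16 ± 0.04 under the control vector was not called (adjusted p = 0.0608), nor was that of 0.12 ± 0.04 under sh-Glud1 (adjusted p = 0.306).

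The length implied for Ghr was greater in OTC livers under all 3 vectors. It averaged 2975 ± 113 bases in OTC sh-Gls2 against 2597 ± 157 bases in WT sh-Gls2 (SD, n = 10 each), 3130 ± 107 bases in OTC sh-Glud1 against 2663 ± 96.5 bases in WT sh-Glud1 (n = 8 and 9), and 3057 ± 247 bases in OTC control against 2700 ± 149 bases in WT control (n = 8 and 10). The log2 ratios were 0.20 ± 0.03 (adjusted p = 0.000426, 0.864% of genes called), 0.23 ± 0.04 (adjusted p = 0.000111, 0.901% of genes called) and 0.18 ± 0.04 (adjusted p = 0.00394, 1.08% of genes called). Ranges lay apart under sh-Glud1, for which the share over all genes was likewise not computed, and overlapped in the other pairs. Annotated coding transcripts of Ghr run from 898 to 4175 bases, and in mice they include a short form that encodes the soluble binding protein as well as the full receptor. Lifr means ran from 4431 to 6180 bases over the 6 groups with no call, and Igfals was at 2125 bases in every group.

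**Figure D3:**
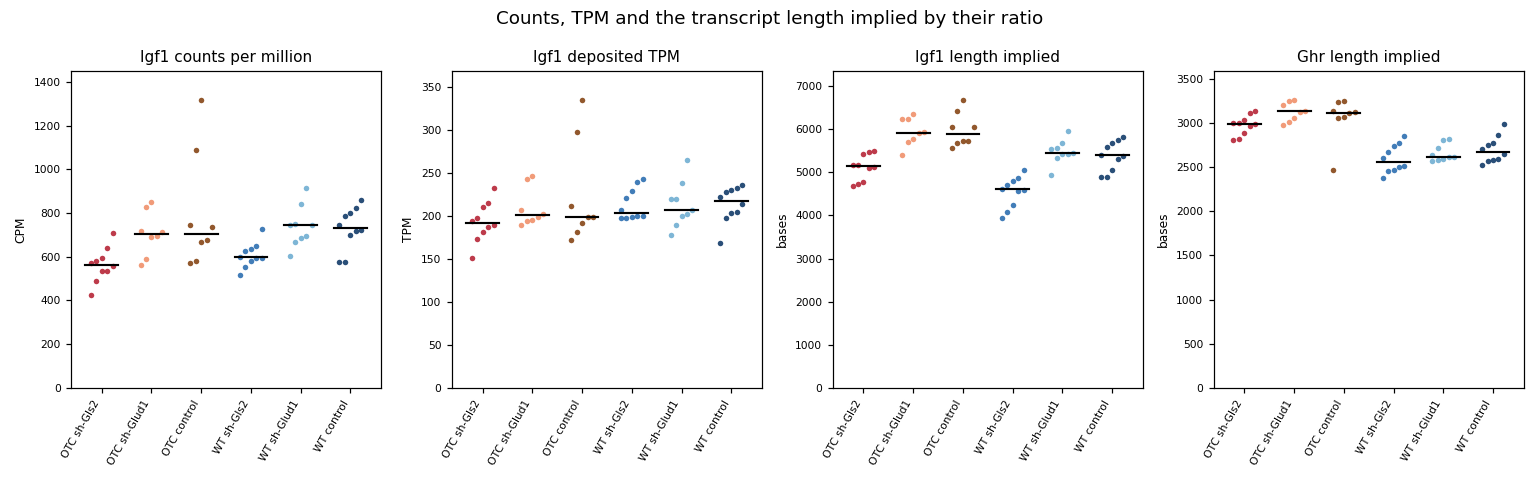
Igf1 in CPM, Igf1 as deposited TPM, and the implied length in bases of Igf1 and of Ghr (y axes), each by library in the 6 groups with OTC left of WT and a black line at the median. Igf1 length is lowest in the sh-Gls2 groups (medians 5145 and 4603 bases), and Ghr length is higher in each OTC group than in its WT group.

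The Glud1 hairpin gave no called change in any of the 10 genes. In OTC livers the log2 differences of hairpin against control ran from −1.16 ± 0.75 for Cux2 to 0.86 ± 0.55 for Bcl6, and Igf1 was at −0.18 ± 0.12. Without OTC control mice 3 and 67 Cux2 was at 0.91 and Igf1 at 0.09. In WT livers Ghr was at 0.01 ± 0.14, Igf1 at 0.02 ± 0.11 and Igfals at −0.04 ± 0.13. Of all tested genes, 0.0150% in OTC and 0.0225% in WT livers were called, with 639 and 697 genes at an unadjusted p below 0.05, among them 1 of the 10 genes in OTC (Stat5b, −0.19 ± 0.09, p = 0.0343, adjusted p = 0.988) and none in WT livers. In DESeq2's Wald test and in the limma fits on TPM none of the 10 was called either.

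The hairpins were also set against each other, a comparison that shares the sh-Gls2 libraries with the one above. In OTC livers Igfals was at −0.50 ± 0.13 (adjusted p = 0.00153), Igf1 at −0.32 ± 0.11 (adjusted p = 0.0171) and Bcl6 at −1.33 ± 0.52 (adjusted p = 0.0367) in sh-Gls2 against sh-Glud1, with 21.1% of genes lower. The Bcl6 call was lost in 10 of 18 fits without 1 library. In WT livers Ghr was at −0.36 ± 0.14 (adjusted p = 0.0459), Igf1 at −0.28 ± 0.11 (adjusted p = 0.0441) and Igfals at −0.46 ± 0.13 (adjusted p = 0.00377), with 14.2% of genes lower. Stat5a was at −0.29 (adjusted p = 0.0569), and at −0.30 (adjusted p = 0.0470) without OTC control mice 3 and 67, which enter through the shared estimate of spread. Every WT sh-Gls2 library was below every WT sh-Glud1 library for Ghr (422 to 574 CPM against 607 to 726 CPM), as for 2.67% of genes. The Ghr and Igf1 calls in WT livers were lost in 14 and 11 of 19 fits without 1 library. Both were also lost on the TPM scale (limma adjusted p = 0.0862 and 0.977) and without a filter on counts (edgeR adjusted p = 0.05475 and 0.0512). Whether the hairpins acted differently in OTC and WT livers was tested as the difference of differences: none of the 10 genes was called for sh-Gls2 (0.338% of genes, with 1496 genes at an unadjusted p below 0.05 and none of the 10) or for sh-Glud1 (0.00%, with 417 genes at an unadjusted p below 0.05 in edgeR and none of the 10), and Igf1 was at −0.24 ± 0.15 for sh-Gls2 (0.03 without OTC control mice 3 and 67).

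Other genes of the pathway were compared between the Gls2 hairpin and the control vector from the same lists. Over all 13311 tested genes, 2685 were higher and 3005 lower in OTC livers, and 2344 were higher and 2294 lower in WT livers. Of 11 IGF system genes, 1 was higher and 2 lower in OTC livers, and 2 were higher and 2 lower in WT livers. Igfbp7, a binding protein, was higher in OTC (0.50 ± 0.09, adjusted p = 7.99e-06) and in WT livers (0.33 ± 0.08, adjusted p = 0.00144). Igfbp1 was higher in WT livers (1.54 ± 0.56, adjusted p = 0.0288). Igf2r, the receptor that clears IGF2, fell by 0.44 ± 0.09 on the log2 scale in OTC livers (adjusted p = 0.000160) and by 0.71 ± 0.09 in WT livers (adjusted p = 8.38e-09). Insr, the insulin receptor, fell by 0.33 ± 0.06 (adjusted p = 1.79e-05) and by 0.29 ± 0.06 (adjusted p = 6.86e-05). Of 23 receptor partners and restraints, 1 was higher and 5 lower in OTC livers, and 3 were higher and 4 lower in WT livers. The lower shares were near those of all genes (22.6% in OTC and 17.2% in WT livers). The higher share in OTC livers was below that of all genes. Sirpa, an inhibitory receptor that myeloid cells also express, was higher in both (1.15 ± 0.15 and 0.89 ± 0.14). Of 22 male-biased genes 1 was higher and 3 lower in OTC livers and 1 was higher and none lower in WT livers, against 8 higher and 2 lower of 27 female-biased genes in OTC and 6 higher and 2 lower in WT livers. Clcf1, a cytokine of the LIFR family, averaged 3.13 CPM in OTC sh-Gls2 against 0.633 CPM in OTC control (2.30 ± 0.21, adjusted p = 8.25e-13), and it averaged 2.91 CPM in WT sh-Gls2 against 0.529 CPM in WT control (2.44 ± 0.20, adjusted p = 1.73e-14).

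Between mice of the same group, Bcl6 and Cish ran against each other. In OTC livers the deviations of their log2 CPM from the group means had a Pearson r of −0.70 and a Spearman rho of −0.67 over 26 libraries (permutation within groups, 100000 draws, adjusted p = 0.00300 and 0.0142 over 45 pairs of genes), and r was −0.66 without the 2 libraries farthest from the median of Cish. In WT livers Cish fell into separate clusters, so no pooled value is given. Below 5 CPM lay 15 WT libraries (7 sh-Gls2, 4 sh-Glud1 and 4 control) with Cish at 0.332 to 3.06 CPM and Bcl6 at 31.9 to 78.6 CPM. Above it lay 14 (3, 5 and 6 in the same order) with Cish at 6.27 to 41.4 CPM and Bcl6 at 4.22 to 63.5 CPM, median 9.40 CPM. Each WT group held mice of both kinds. For these clusters log2 CPM was correlated without subtracting group means, and permutation ran over all mice of a cluster. Differences between vectors therefore enter these values. Within the lower cluster r was −0.25 (permutation adjusted p = 0.397). Within the upper cluster r was −0.68 (permutation adjusted p = 0.0209) and rho was −0.74. Values were adjusted over 9 relations, and this split was made after the data were seen.

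Other pairs of genes were also correlated within a strain. Of 45 pairs, 18 had a called correlation of deviations in OTC livers (8 positive and 10 negative) and 14 in WT livers (10 positive and 4 negative). The share called among pairs of all tested genes was not computed. All genes of a library share its depth and RNA sample, so these counts are a description and not a trait of the axis. In OTC livers Ghr ran against Cux2 (r = −0.64, rho = −0.71, permutation adjusted p = 0.00300 and 0.0108; r = −0.67 without the 2 libraries farthest from the median of Ghr) and with Lifr (r = 0.58, rho = 0.59, adjusted p = 0.00378 and 0.0204; 0.60 without 2). Socs2 ran with Cux2 (r = 0.69, rho = 0.62, adjusted p = 0.00300 and 0.0179; 0.62 without 2) and with Cish (r = 0.69, rho = 0.60, adjusted p = 0.00326 and 0.0204; 0.51 without 2). Over both strains together Ghr and Lifr had r = 0.29 (permutation adjusted p = 0.0101), and 0.26 (adjusted p = 0.0662) without the 3 libraries that stood apart. In WT livers Igf1 ran with Igfals (r = 0.73, rho = 0.70, adjusted p = 0.000600 and 0.000750; 0.62 without 2), and Igfals with Socs2 (r = 0.65, rho = 0.64, adjusted p = 0.00338 and 0.00293; 0.51 without 2).

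The relation of the receptor to the hormone had opposite signs. Ghr and Igf1 had r = −0.62 in OTC livers (rho = −0.51, permutation adjusted p = 0.0440 and 0.0543; r = −0.50 without the 2 libraries farthest from the median of Ghr) and r = 0.51 in WT livers (rho = 0.49, adjusted p = 0.0335 and 0.0339; 0.39 without 2). With strain labels permuted within each vector (20000 draws, a test added after the data were seen), the difference was −1.12 (adjusted p = 0.00338 over 45 pairs), and −0.91 (adjusted p = 0.0456) without the 3 libraries that stood apart. Igf1 and Lifr differed in the same direction (r = −0.52 in OTC and 0.34 in WT livers, adjusted p = 0.00338; 0.0456 without the 3 libraries), as did Socs2 and Lifr (−0.35 and 0.56, adjusted p = 0.00413; 0.0171). Igfals and Bcl6 had r = 0.49 in OTC and −0.49 in WT livers (adjusted p = 0.00338; 0.0135). The test passed for 11 of 45 pairs, 8 of them also without the 3 libraries. For this test, too, the share over pairs of all tested genes was not computed.

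**Figure D4:**
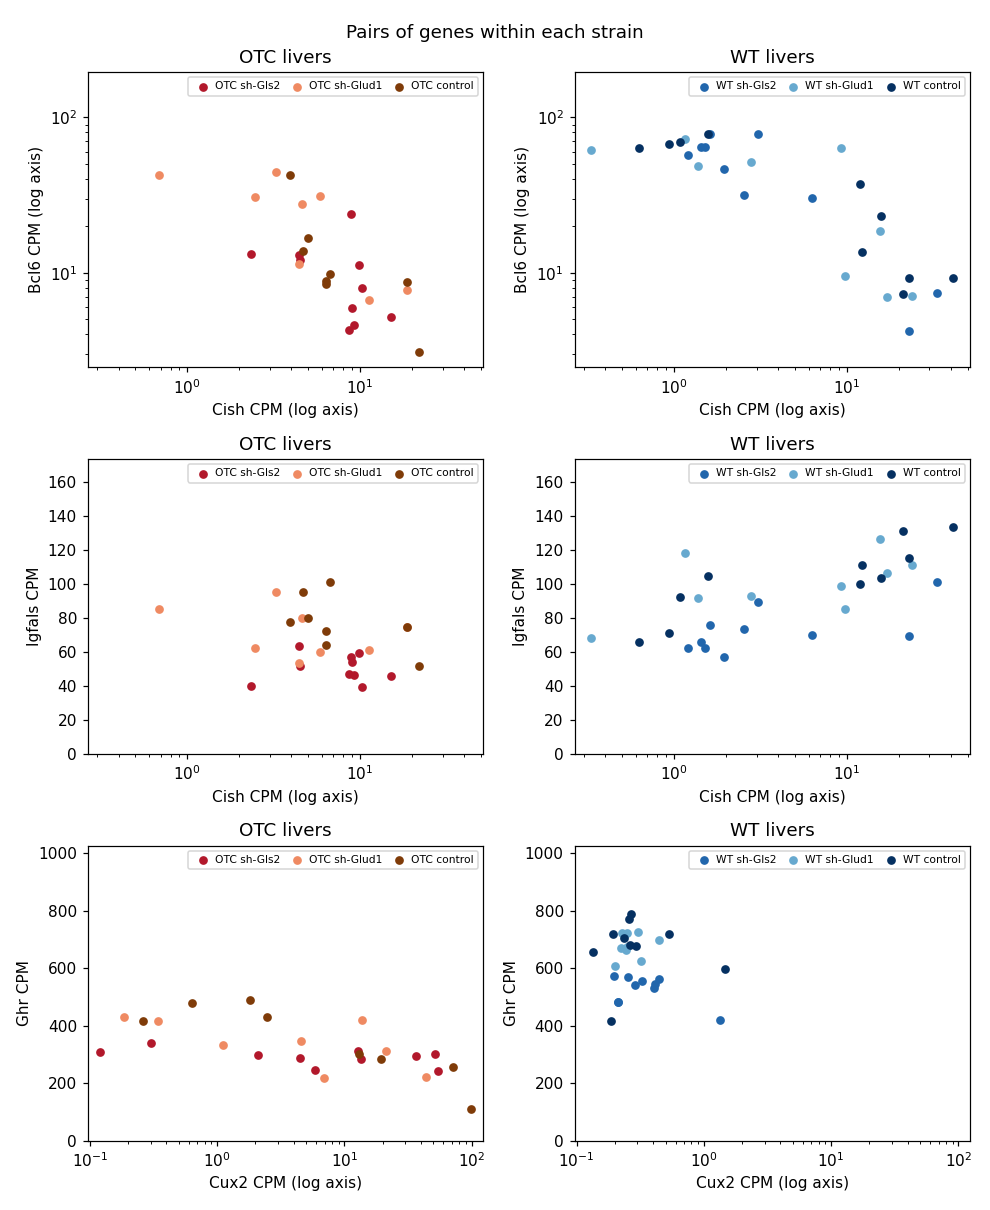
Pairs of genes by library in CPM with OTC livers on the left and WT livers on the right: Bcl6 against Cish (log axes), Igfals against Cish and Ghr against Cux2 (log x axis), coloured by vector. In WT livers Cish splits into points below 3.06 CPM and above 6.27 CPM. In OTC livers the lowest Ghr (111 CPM) and the highest Cux2 (99.1 CPM) both belong to OTC control mouse 3, which stood apart from its group.

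Among 10420 named genes that averaged 1 log2 CPM or more (10421 for Cux2), those most alike to each gene between mice were found by the smallest root mean square difference of scaled deviations over the 55 libraries, which share their depth and RNA sample. For Ghr they were Cat, the gene of catalase (r = 0.94), and Akr1c6, a hydroxysteroid dehydrogenase (0.92). For Cux2 they were Fmo2, a flavin monooxygenase (0.91), and Uhrf1bp1l (0.83). Igf1 was closest to Sds, serine dehydratase (0.80), Agpat6 (0.77) and Rhbdd2 (0.76), and Socs2 to Arid5b (0.77), Ergic2 (0.76) and Cish (0.74). Cish was closest to Zfp809 (0.78) and to the transcription factors Foxq1 and Onecut1 (0.75 each). Over the 6 group means the nearest genes were March8, Dhrs4 and Mup8 for Ghr, Magix, Pih1d1 and Zbtb17 for Igf1, and Srrm4, B4galt5 and Fam208b for Cux2. For Socs2 they were Zfp113, Zc3h6 and Prpf39, and for Cish Grk6 and Lcorl.

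On the mouse genome (GRCm38, GENCODE M21) Ghr lies at chr15:3317760-3583492 on the minus strand and Lifr at chr15:7090614-7197489 on the plus strand of the same chromosome. Igf1 is at chr10:87858265-87937042 (plus), Socs2 at chr10:95385362-95417180 (minus), Igfals at chr17:24865997-24882010 (plus), Cish at chr9:107296026-107302784 (plus), Bcl6 at chr16:23965052-23988852 (minus) and Cux2 at chr5:121856366-122050102 (minus). Stat5b (chr11:100780731-100850724, minus) and Stat5a (chr11:100859351-100885169, plus) are neighbours. Annotated genes on the opposite strand overlap Igf1 (Igf1os), Stat5a (Stat3), Cish, Bcl6 and Cux2. The library kit keeps strand, and whether the counting used it was not given in the sources used here, so reads of these partners may be included.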

How the data were processed

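Total RNA of male mouse liver was purified with a MagMAX kit and made into libraries with the KAPA Stranded mRNA-Seq kit, per the labels' protocols. Base calling used CASAVA 1.8.2 with FastQC checks and the build GRCm38, per the submitters' processing notes; the aligner, the annotation and the counting program are not given in the sources used here. The authors deposited a table of counts of reads per gene (whole numbers, not normalised) and a table of TPM (scaled by the authors to transcript length and depth) for the same 55 libraries, columns matched to samples by mouse number and group. Libraries carry no molecular identifiers, so precision refers to reads, and total counts lay between 14489866 and 22781052.

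Counts were fitted with edgeR 4.0.16 in R 4.3.3 (TMM scaling, low counts removed by filterByExpr at its settings of 10 per library and 15 in total, 1 mean per group over all 6 groups, quasi-likelihood F test, Benjamini-Hochberg adjustment over 13311 genes, called at 0.05). The SE is the log2 fold change divided by the square root of F. CPM were scaled to the TMM library totals. DESeq2 1.42.0, and limma 3.58.1 on log2(TPM + 1) and log2(TPM + 0.1), served as alternatives, with other filters, other scaling, the compared groups alone, and each library left out. The fit was tested on simulated counts. Ratios of deposited counts to TPM (at least 0.2 TPM in every library and a mean of at least 1) were compared with limma. That ratio, the comparison of correlations between strains and the Cish clusters were chosen after the data were seen.

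Members and lists were chosen with earlier results of these data known. Named genes were the 10 members, up to 4 called genes of smallest adjusted p per list and comparison, and the 3 most alike genes of Ghr, Igf1, Socs2, Cish and Cux2. Some genes that this rule names are not reported here. No batch is named in the labels. GENCODE M21 and RefSeq, both on GRCm38, gave positions and promoters.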

Additional observations from a re-analysis of the deposited data

Results flagged for a closer look

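In 10 of the 60 sets of a gene and a group, 1 mouse stood apart from the rest of its group by Dixon's gap criterion. That criterion flags about 1 in 20 sets when values are normally distributed. It was applied to CPM without a log scale, and most flags fell in Socs2, Bcl6 and Cux2, which spread widely between mice. The rate of 1 in 20 is therefore no measure of chance here. Ghr was low in WT control mouse 7, at 418 CPM against 598.5 CPM in the next library. Socs2 was high in OTC control mouse 3 (133 CPM, next 41.3 CPM), in WT sh-Gls2 mouse 79 (17.7 CPM, next 9.85 CPM) and in WT sh-Glud1 mouse 40 (28.1 CPM, next 10.8 CPM). Bcl6 was high in OTC sh-Gls2 mouse 31 (23.9 CPM, next 13.2 CPM) and in OTC control mouse 46 (42.4 CPM, next 16.6 CPM). Cux2 was high in WT sh-Gls2 mouse 79 (1.33 CPM, next 0.443 CPM), in WT sh-Glud1 mouse 15 (0.442 CPM, next 0.320 CPM) and in WT control mouse 13 (1.46 CPM, next 0.537 CPM). Lifr was high in WT sh-Glud1 mouse 40, at 1016 CPM against 528.5 CPM in the next library.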

How the results depend on the processing

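Results of the 10 genes over 11 comparisons kept their call in 110 of 110 cases with DESeq2 size factors, with DESeq2's Wald test (where 1 uncalled value changed sign) and with a filter of 1 CPM in 8 libraries, in 99 of 110 with limma on log2(TPM + 1) (12 uncalled values changed sign) and in 105 of 110 without OTC control mice 3 and 67 (15 uncalled values changed sign). On TPM (either pseudocount, or no filter) 1 of the 10 genes was called for sh-Gls2 against control in each strain and for sh-Gls2 against sh-Glud1 in each strain; Igf1 in WT sh-Gls2 against WT sh-Glud1 turned to 0.0045 on the log2 scale. Without a filter on counts that last comparison had 1 called gene, and with only its groups fitted 5. Leaving out 1 library gave 1 to 4 called genes for WT sh-Gls2 against control, 1 to 3 for WT and 2 to 3 for OTC sh-Gls2 against sh-Glud1, 2 to 3 for OTC sh-Gls2 against control, 5 to 7 for OTC against WT control and 6 to 7 for OTC against WT sh-Glud1. Over all genes, OTC sh-Glud1 against control had 1 call with only its groups fitted or on unfiltered TPM and 2 to 3 with 1 library left out. The test of whether sh-Gls2 acted differently between strains called 24 genes without a filter, 19 with only its groups, 91 with DESeq2, 21, 23 and 28 on the TPM scales, 10 without OTC control mice 3 and 67, 12 when WT control mouse 13 was also removed, and 15 to 64 with 1 library left out. Co-variation gave 14 called pairs in WT livers alone, 18 in OTC livers alone and 22 over both. Socs2 in OTC against WT sh-Glud1 passed on TPM (1.39, adjusted p = 0.0102) and without WT sh-Glud1 mouse 40, OTC sh-Glud1 mouse 42 or mouse 44, and Igf1 in OTC sh-Gls2 against sh-Glud1 was lost without OTC sh-Glud1 mouse 65 (adjusted p = 0.0502). The causes were not tested. No paired analysis was possible because mouse numbers do not recur between groups. Cux2 in WT livers rests on 3 to 26 reads per library, which limits its fold changes.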
